A study of Homo sapiens with 19 samples.

Results

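Late-numbered miRBase entries are human miRNA names with a number of 3000 or more, which were added to the miRBase catalogue in its later releases. Those described here had 10 or more counts summed over 18 small-RNA libraries of Caco-2, a long-established epithelial line from a human colorectal tumour, and of its culture medium. There were 101 such entries among 1043 miRNAs listed in all. A further 292 late-numbered names had 1 to 9 counts, and 13 listed entries were left out by number (the arms of miR-3648, miR-3651, miR-3687, miR-4454, miR-4485, miR-5100, miR-7704, miR-10395, miR-10396a, miR-10396b and miR-12136). The members were thus chosen by their summed counts and names, and with earlier results of these data known.

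All groups came from the same line, with no transgene or drug named in the labels. Cells were grown with 20% foetal bovine serum and, at 80% confluence, kept for 24 h without serum and antibiotics. The groups were cell lysate (3 libraries), total extracellular RNA of the medium (total exRNA, 4), what sedimented from the medium at 40000 xg (P40, 4), what sedimented next at 100000 xg (P100, 4) and the final supernatant (S100, 4). Nucleic acids of the total exRNA and S100 samples were precipitated ahead of Trizol, whereas cells and pellets went into Trizol directly. In a comparison of the former with the latter, fraction and RNA preparation cannot be told apart. No label states that replicates were separate cultures, and p-values therefore reflect only how far these samples spread, which may be technical.

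A mature miRNA is a short RNA cut by Drosha and Dicer from a hairpin precursor and loaded into an Argonaute protein, where bases 2 to 8, the seed, pair with target mRNAs. miRBase numbers entries in order of submission, and most high numbers were submitted from deep sequencing of small RNA. Many of them are poorly conserved, and some are mirtrons, hairpins released by splicing of a short intron in place of Drosha. Others overlap longer RNAs, so that a read with that sequence does not by itself show processing as a miRNA. Outside cells, miRNAs and RNA fragments are carried in vesicles that sediment at high speed and in protein complexes that stay in the supernatant.

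The mature sequences below are those the results turn on: the most abundant entries, the entry highest in S100 that lay at 0 in lysate, entries counted mostly in S100, and the entries that leaned to lysate or were rich in A. They are RefSeq sequences (GRCh38.p14 table), 5′ to 3′, with the seed (bases 2 to 8) in capitals.
miR-4516: gGGAGAAGggucggggc
miR-4488: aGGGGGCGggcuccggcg
miR-4492: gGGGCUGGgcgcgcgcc
miR-9901: cGGUCGCCgcgguucgccgcc
miR-3196: cGGGGCGGcaggggccuc
miR-4466: gGGUGCGGgccggcgggg
miR-4497: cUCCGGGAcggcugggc
miR-4690-5p: gAGCAGGCgaggcugggcugaa
miR-4707-5p: gCCCCGGCgcgggcggguucugg
miR-4707-3p: aGCCCGCCccagccgagguucu
miR-3940-3p: cAGCCCGGaucccagcccacuu
miR-3615: uCUCUCGGcuccucgcggcuc
miR-5701: uUAUUGUCacguucugauu
miR-3613-3p: aCAAAAAAaaaagcccaacccuuc
No 2 of these 14 sequences share a seed. The first 7 run from 17 to 21 bases and are 76.5% to 94.4% G and C, whereas miR-5701 and miR-3613-3p hold 31.6% and 37.5%.

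Named arms numbered 41 for 5p and 36 for 3p, and 24 had a single name. Abundance was steep: 22 entries reached 100 counts over the 18 libraries. Just inside the threshold, 7 entries had 10 counts (miR-3692-5p, miR-4664-5p, miR-4725-5p, miR-4783-3p, miR-6735-5p, miR-6797-5p and miR-6834-5p). Just outside it, 10 had 9 counts (miR-3120-5p, miR-3150a-3p, miR-3188, miR-4713-5p, miR-4722-5p, miR-4785, miR-6734-5p, miR-6800-5p, miR-6807-5p and miR-10526-3p).

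Depth differed between groups and bears on every low entry. S100 libraries held 198878 to 225290 counts, lysate 37453 to 157051, total exRNA 34427 to 61622, P40 10490 to 26096 and P100 10017 to 27027. The remaining S100 library, replicate 1, held 48 counts, none of them in the members, which allows a share of up to 6.25%, and it was left out. Epithelial marker miRNAs (5 of 5 counted) summed to 50426 to 53690 CPM in lysate and to 6695 to 8047 CPM in S100, where CPM are counts scaled to a common library size. Gut epithelial markers (3 of 3 counted) went the other way, with 5932 to 10916 CPM in lysate and 18040 to 23465 CPM in S100. Of 4 blood-cell miRNAs, miR-451a, miR-144-3p and miR-223-3p were at 0 in all lysate libraries, and the 4 summed to 451 to 523 CPM in lysate, 833 to 2884 CPM in total exRNA and the pellets and 74.9 to 147 CPM in S100. The part of such RNA in the results below was not tested.

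Late-numbered entries took a larger share of the counts outside cells than in lysate. They held 0.697% ± 0.535 of lysate counts (SD, n = 3), 5.24% ± 2.47 in total exRNA (n = 4), 2.99% ± 0.993 in P40 (n = 4), 3.13% ± 0.233 in P100 (n = 4) and 2.11% ± 0.537 in S100 (n = 3). The highest lysate library, at 1.31%, lay below the lowest extracellular library, at 1.76%, and the same order held within each batch number with a lysate library. These shares are descriptions with no test, since the members were chosen with results known. 2 libraries stood apart in their groups: lysate replicate 1 held 1.31% against 0.465% and 0.317% in the others, and total exRNA replicate 2 held 1.76% against 5.64% to 7.56%. P40 split into 2 libraries at 3.78% and 3.91% and 2 at 2.07% and 2.19%. The 13 entries left out by number took 7.82% of lysate replicate 1 against 3.78% and 4.03%, and 5.58% of total exRNA replicate 2 against 9.91% to 19.3%. With these entries added, the share was 5.90% in lysate (4.09% to 9.13%) and 2.54% in S100 (2.10% to 3.26%), so that S100 lay below lysate, while total exRNA, P40 and P100 gave 17.9%, 13.0% and 22.7%. Their part in the difference was not tested.

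**Figure D1:**
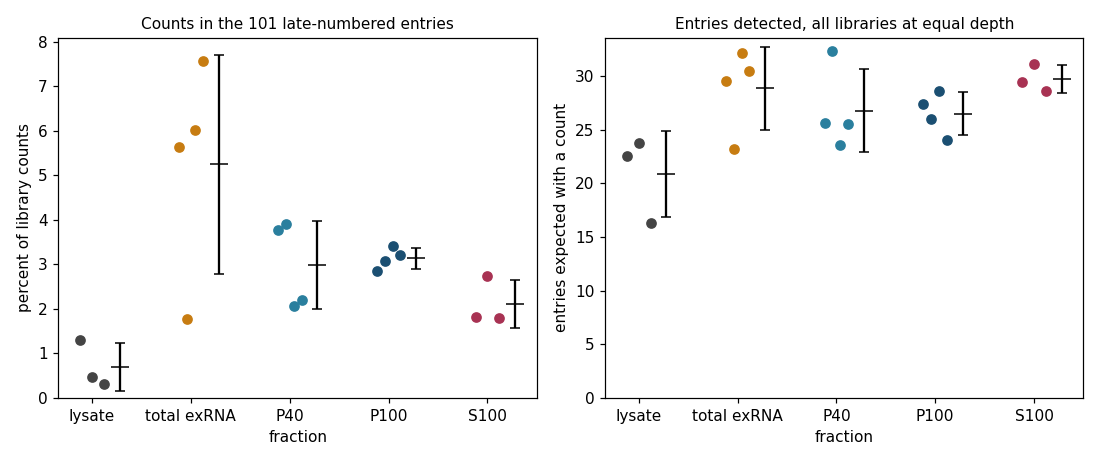
Left, percent of each library's counts in the 101 late-numbered entries; right, entries expected with a count when every library is reduced to 10017 counts. Each point is a library (n = 3 or 4 per fraction) and bars give the mean and SD; every lysate library lies below every extracellular one on the left, while S100 and total exRNA overlap on the right.

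A pair of entries made up much of this share. miR-4488 and miR-4516 together held 28.6% of the members' counts in lysate, 56.8% in total exRNA, 49.9% in P40, 48.1% in P100 and 73.0% in S100. Without them the remaining 99 entries held 0.450% ± 0.255 of lysate (n = 3), 2.20% ± 0.799 of total exRNA (n = 4), 1.47% ± 0.241 of P40 (n = 4), 1.58% ± 0.208 of P100 (n = 4) and 0.572% ± 0.0931 of S100 (n = 3). So the excess over lysate was still seen without the pair in total exRNA and the pellets, while S100, at 0.507% to 0.679%, lay within the lysate range of 0.241% to 0.734%.

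The number of entries seen was highest in S100, the deepest libraries. Each S100 library had a count for 83 or 84 of the 101 members, against 33 to 57 in lysate, 48 to 58 in total exRNA, 26 to 40 in P40 and 24 to 40 in P100. At an equal depth of 10017 counts the expected numbers were 20.9 ± 4.00 in lysate, 28.8 ± 3.91 in total exRNA, 26.8 ± 3.84 in P40, 26.5 ± 1.97 in P100 and 29.7 ± 1.28 in S100. The wide margin of S100 was thus not seen at equal depth, where lysate had the lowest mean. 4 members had counts in all 18 libraries, 27 had none in lysate, 8 none in S100 and 27 none in either pellet. The highest group mean lay in S100 for 28 members, in lysate for 24, in total exRNA for 18, in P40 for 16 and in P100 for 15. Choice of members by summed counts favours entries of the deep S100 libraries in these numbers.

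Tests were run over 227 miRNAs that passed a filter on low counts, which 16 members passed and 85 did not. Each of the 16 reached the filter's level of 278 CPM in libraries of more than 1 group. miR-3960 reached it in 4 P100 libraries and 1 of total exRNA, and so entered the test through P100. The call of a member as higher or lower needs an adjusted p below 0.05 by the quasi-likelihood test of edgeR, adjusted after Benjamini and Hochberg over the 227 miRNAs. The comparisons with lysate share its 3 libraries and are not independent. miR-3195, miR-3960, miR-4466, miR-4690-5p, miR-9901, miR-10394-3p, miR-10400-5p, miR-10401-3p and miR-10401-5p reached the filter's level in no lysate library. They entered through extracellular groups, so the numbers below depend in part on the filter. With a filter of 10 counts in 3 libraries, miR-3127-5p and miR-5701, outside the 16, were called lower than in lysate in total exRNA, P40 and P100. In total exRNA 12 of 16 members were higher and 0 lower than in lysate, where 18.9% of all tested miRNAs were higher and 16.3% lower. In P40 the numbers were 10 and 0, beside 13.7% and 13.2% of all tested miRNAs. In P100 they were 11 and 0, beside 16.7% and 20.7%. In S100 6 members were higher and 4 lower, beside 32.2% and 30.0%. The members' median log2 fold change against lysate was 3.90 in total exRNA, 2.98 in P40, 3.64 in P100 and 0.78 in S100, beside medians of 0.01, 0.06, -0.10 and -0.04 over all tested miRNAs. With 4 members that had no lysate count set at their lower bound, the medians were 3.46, 2.35, 3.24 and 0.78.

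**Figure D2:**
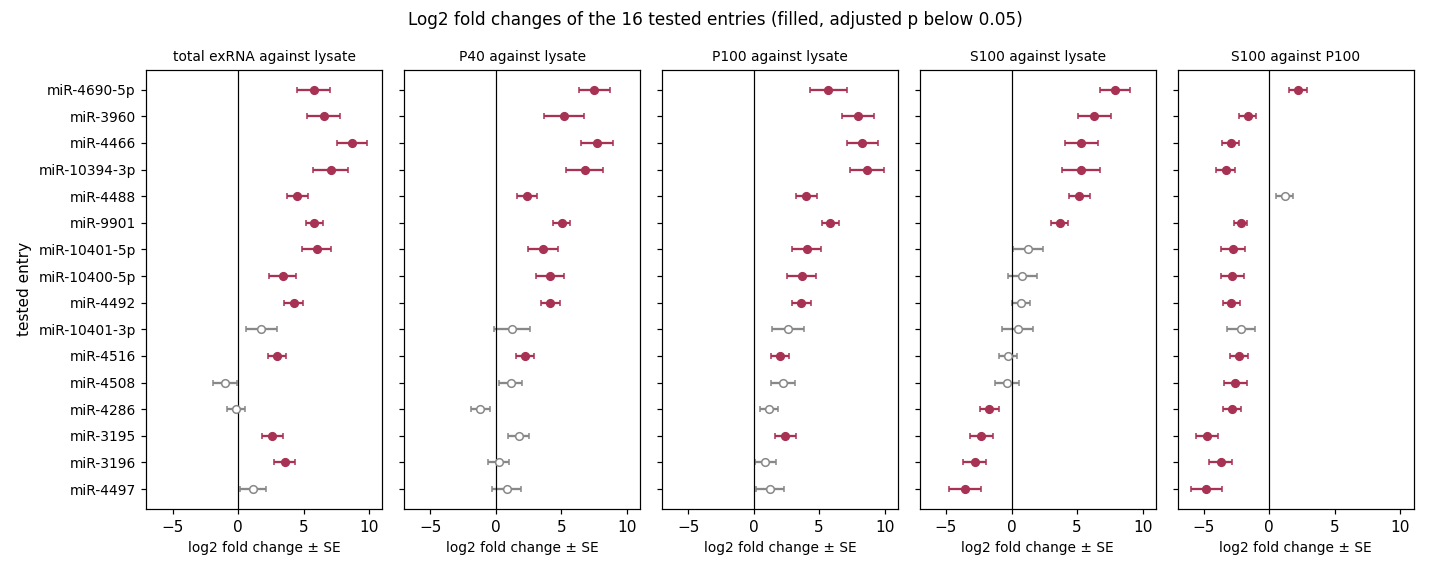
Log2 fold change with its SE for the 16 tested entries in 5 comparisons; filled points passed an adjusted p of 0.05, open points did not. All filled points lie right of 0 for total exRNA, P40 and P100 against lysate, and 13 of 14 lie left of 0 for S100 against P100; the 4 topmost entries had 0 lysate counts, so their fitted sizes depend on a prior count.

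miR-4516, the most abundant member by its mean over the 5 groups, lies antisense to PKD1, the gene of the membrane protein polycystin, at chr16:2133120-2133136 (GRCh38, + strand). It measured 6421, 940 and 709 CPM in lysate and 26762, 4942, 20388 and 29712 CPM in total exRNA. P40 gave 16737, 20423, 5360 and 6246 CPM, P100 gave 11380, 8437, 13486 and 8826 CPM, and S100 gave 1843, 1960 and 2653 CPM. The first lysate library was the high one, and it lay within the ranges of total exRNA and P40 but below every P100 library. Against lysate the log2 fold change was 2.96 ± 0.71 in total exRNA (adjusted p = 0.00247), 2.22 ± 0.69 in P40 (0.0183), 2.01 ± 0.68 in P100 (0.0249) and -0.28 ± 0.68 in S100 (0.773). In S100 it was lower than in P100 by a log2 fold change of -2.29 ± 0.68 (adjusted p = 0.00677), with no overlap. Lysate replicate 1 set the size of these values: without it the log2 fold changes were 4.62, 3.88, 3.67 and 1.37, the last with an adjusted p of 0.0468. Without lysate replicate 2 or 3 the P40 call was lost (adjusted p = 0.0927 and 0.0896), as was the P100 call (0.109 and 0.108). The P40 call was also lost without P40 replicate 2 (0.0567) and in a fit of those 2 groups alone (0.115), and the P100 call without P100 replicate 3 (0.0527) and with a filter of 10 counts in 3 libraries (0.0609). With no low-count filter S100 against P100 did not pass (-1.64, 0.102).

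miR-4492 lies antisense to BCL9L, a co-activator of beta-catenin, at chr11:118910765-118910781 (+). It gave 872, 222 and 0 CPM in lysate, 3093 to 8572 CPM in total exRNA, 4981 to 7148 CPM in P40, 2435 to 5079 CPM in P100 and 406 to 624 CPM in S100. The 12 libraries of total exRNA and the pellets all lay above all lysate and S100 libraries. Its log2 fold change against lysate was 4.24 ± 0.73, 4.15 ± 0.73 and 3.62 ± 0.71 in total exRNA, P40 and P100 (adjusted p = 0.000121, 0.000213 and 0.000462) and 0.72 ± 0.69 in S100 (0.385). Without lysate replicate 1 the S100 value was 2.03, with an adjusted p of 0.00737, and with no low-count filter it was 1.53 (0.0135).

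miR-3195, for which no sequence is shown, had a like profile. It measured 314, 141 and 32.2 CPM in lysate, 1122, 178, 1327 and 999.7 CPM in total exRNA, 158 to 860 CPM in P40, 732 to 876 CPM in P100 and 41.1, 41.6 and 0 CPM in S100. P100 lay above lysate in every library, while total exRNA overlapped lysate through its replicate 2. Its log2 fold change against lysate was 2.60 ± 0.79 in total exRNA (adjusted p = 0.0136) and 2.43 ± 0.80 in P100 (0.0208), and 1.73 ± 0.81 in P40 did not pass (0.119). Without lysate replicate 2 or 3 both calls were lost (0.0615 and 0.0650 in total exRNA, 0.0701 and 0.0912 in P100). miR-3195 had the highest Spearman correlation with miR-4516 among the tested miRNAs (0.924 over 18 libraries), followed by miR-4492 (0.856) and the older-numbered miR-425-5p (0.829). These points share libraries and groups and are given as a description.

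miR-4488 had another profile, with its highest group mean in S100. This entry, at chr11:61508599-61508616 (+) outside annotated genes, measured 1082, 118 and 96.7 CPM in lysate and 11563, 17291 and 11733 CPM in S100. Total exRNA ranged from 1702 to 17300 CPM, P40 from 1581 to 2633 CPM and P100 from 3853 to 9841 CPM. Every extracellular library lay above every lysate library, and every S100 library above every P100 library. The log2 fold change against lysate was 5.19 ± 0.83 in S100 (adjusted p = 2.05e-05), 4.53 ± 0.79 in total exRNA (0.000142), 4.02 ± 0.78 in P100 (0.000403) and 2.39 ± 0.75 in P40 (0.0196). S100 against P100 gave 1.17 ± 0.63, which did not pass (adjusted p = 0.116), although it did in a fit of these 2 groups alone (1.44, adjusted p = 8.29e-07) and with no filter (1.88, 0.000968). The P40 call was lost without lysate replicate 2 or 3 (adjusted p = 0.107 and 0.106), and without lysate replicate 1 the P40 value was 4.13.

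miR-4690-5p, which begins at the start of an intron of PCNX3 (chr11:65636310-65636331, +), was the 1 tested member called higher in S100 than in P100. It had 0 counts in all lysate libraries and measured 370, 529 and 451 CPM in S100. P100 held 59.3, 43.0, 175 and 101 CPM, total exRNA 55.5 to 166 CPM and P40 69.2 to 712 CPM. Against lysate it was at least 34.3-fold higher in S100 (edgeR adjusted p = 5.09e-06), 22.7-fold in P40 (8.08e-05), 7.68-fold in total exRNA (0.00117) and 7.24-fold in P100 (0.00314), each a lower bound from 3 counts over the lysate group. S100 exceeded P100 by a log2 fold change of 2.21 ± 0.70 (adjusted p = 0.00993), with no overlap. At equal depth this call and those of total exRNA and P100 were lost (adjusted p = 0.254, 0.0923 and 0.134).

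Another 3 tested members were not counted in lysate. miR-4466, antisense to the chromatin-remodelling gene ARID1B at chr6:156779710-156779727 (- strand), measured 222 to 1666 CPM in total exRNA, 138 to 553 CPM in P40, 406 to 744 CPM in P100 and 66.6 to 87.3 CPM in S100. It was at least 50.3-, 26.7-, 45.5- and 5.53-fold higher than in lysate in these groups (adjusted p = 4.36e-06, 7.19e-05, 9.76e-06 and 0.00112). Before TMM scaling, a lysate library would need 19.1 to 80.1 CPM to reach 3 counts. With the lysate factors of 0.775 to 0.950, these floors are higher on the TMM scale of the S100 level. So a level like that of S100 could go uncounted in a lysate library. At equal depth its S100 call was lost (adjusted p = 0.115).

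miR-10394-3p also had 0 counts in all lysate libraries. P100 held the most, 711, 603, 1051 and 609 CPM, above all other libraries, against 79.1 to 439 CPM in P40, 29.6 to 553 CPM in total exRNA and 56.5 to 89.1 CPM in S100. Its lower bounds against lysate were 57.9-fold in P100 (adjusted p = 1.69e-05), 18.4-fold in total exRNA (0.000277), 14.8-fold in P40 (0.00106) and 5.53-fold in S100 (0.00282). The last 2 calls were lost at equal depth (adjusted p = 0.0796 and 0.119).

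miR-3960, for which no sequence is shown, also had its highest levels in P100, at 593, 560, 394 and 304 CPM. P40 held 34.6 to 125 CPM, S100 123 to 179 CPM and total exRNA 44.4 to 444 CPM. It was the 1 member called between the pellets, where 1 of 16 members was higher in P100 and 0 lower, beside 2.20% and 2.64% of all tested miRNAs. The log2 fold change of P100 against P40 was 2.77 ± 0.79 (adjusted p = 0.0427), from 35 counts against 5. Since miR-3960 entered the test through P100, the higher group, this call is not independent of the filter. With batch number as a block the adjusted p was 0.0730, and it exceeded 0.05 without any of P40 replicates 2, 3 and 4 or any single P100 library. Against lysate it was at least 36.2-fold higher in P100 (adjusted p = 2.03e-05), 11.5-fold in total exRNA (0.00034), 11.3-fold in S100 (0.000173) and 4.95-fold in P40 (0.0144). At equal depth the calls of total exRNA, P40 and S100 were lost (0.0857, 0.209 and 0.131), and that of P40 also without lysate replicate 2 (0.0705).

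miR-9901, at chr16:34163601-34163621 (+) outside annotated genes, was near 0 in lysate. It measured 34.9, 81.4 and 0 CPM in lysate, 2786, 2927, 2890 and 2435 CPM in P100, 1107 to 2150 CPM in P40, 1194 to 4330 CPM in total exRNA and 365 to 791 CPM in S100. The log2 fold changes against lysate were 5.83 ± 0.65 in P100, 5.01 ± 0.64 in P40, 5.81 ± 0.65 in total exRNA and 3.67 ± 0.63 in S100 (adjusted p = 3.06e-07, 3.49e-06, 2.95e-07 and 3.09e-05). No extracellular library overlapped lysate, and S100 lay below P100 by a log2 fold change of -2.16 ± 0.49 (adjusted p = 0.000718). These calls passed under each of the other settings tried, and the S100 value was 5.51 without lysate replicate 2.

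The 2 arms of miR-10401 and miR-10400-5p are named here without a sequence. miR-10401-5p measured 0, 22.2 and 64.4 CPM in lysate and 2895, 207, 1788 and 3777 CPM in total exRNA, a log2 fold change of 6.00 ± 1.12 (adjusted p = 0.000277). Its log2 fold change was 4.04 ± 1.12 in P100 (0.00787) and 3.57 ± 1.13 in P40 (0.0197). The P40 value leaned on replicate 1, at 1254 CPM beside 269, 104 and 0 CPM; without it the log2 fold change was 1.99 (adjusted p = 0.213), and with batch as a block the adjusted p was 0.0522. The P40 call was also lost without lysate replicate 2 (0.0936). miR-10401-3p passed in no comparison. miR-10400-5p was higher in total exRNA (3.40 ± 1.03, adjusted p = 0.0136), P40 (4.10 ± 1.06, 0.00561) and P100 (3.65 ± 1.10, 0.0123), and its total exRNA value rested on replicate 2, with 459 CPM beside 52.2 to 139 CPM (2.17 without it, 0.116). It had 29.6 CPM in lysate replicate 2 and 0 in the others, and its values without that library were 6.55, 7.25 and 6.80. The total exRNA call was lost without lysate replicate 3 (adjusted p = 0.0534), and all 3 were lost at equal depth (0.195, 0.153 and 0.180).

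miR-3196, in an intron of BIRC7, an inhibitor of apoptosis (chr20:63238788-63238805, +), was largely a total exRNA entry. It measured 3104, 725, 5364 and 7997 CPM there, against 838, 118 and 242 CPM in lysate, 79.1 to 752 CPM in P40, 356 to 913 CPM in P100 and 35.9, 74.9 and 36.7 CPM in S100. It was higher in total exRNA than in lysate (log2 fold change 3.56 ± 0.82, adjusted p = 0.0019) and lower in S100 (-2.82 ± 0.87, 0.00775), while P40 and P100 gave 0.20 ± 0.83 and 0.88 ± 0.81 and did not pass. All S100 libraries lay below all others. The S100 call against lysate was lost without lysate replicate 1 (-1.76, adjusted p = 0.0688).

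The other members called lower in S100 than in lysate were miR-3195 (log2 fold change -2.31 ± 0.87, adjusted p = 0.0232), miR-4286 (-1.69 ± 0.71, 0.0429) and miR-4497 (-3.57 ± 1.23, 0.0159). miR-4497, antisense to the cation channel gene TRPV4 at chr12:109833350-109833366 (+), measured 698, 22.2 and 0 CPM in lysate and 5.13, 16.6 and 21.0 CPM in S100, so that lysate replicate 1 alone stood high. It passed in neither total exRNA nor a pellet against lysate, but did without that library (log2 fold change 4.71, 4.41 and 4.80 in total exRNA, P40 and P100, adjusted p = 0.00151, 0.00471 and 0.00161). Without lysate replicate 1 none of the 4, miR-3196 included, was called, and miR-4497 gave a log2 fold change of 0.000418. With batch as a block miR-3195, miR-4286 and miR-4497 were not called (adjusted p = 0.0609, 0.242 and 0.119). At equal depth all 4 were lost, and 3 of the 6 higher calls in S100 were lost as well.

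miR-4508, again without a sequence here, measured 1501, 178 and 0 CPM in lysate and 1600, 2066, 3634 and 2333 CPM in P100. P100 lay above lysate in every library, but its log2 fold change of 2.24 ± 0.91 did not pass (adjusted p = 0.0577). It passed with batch as a block (3.15, adjusted p = 0.0173), by DESeq2 (2.32, 0.0252) and without lysate replicate 1 (4.56, 0.000392). In S100 without that library it gave 1.96 (0.0439), beside -0.35 ± 0.91 with it.

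**Figure D3:**
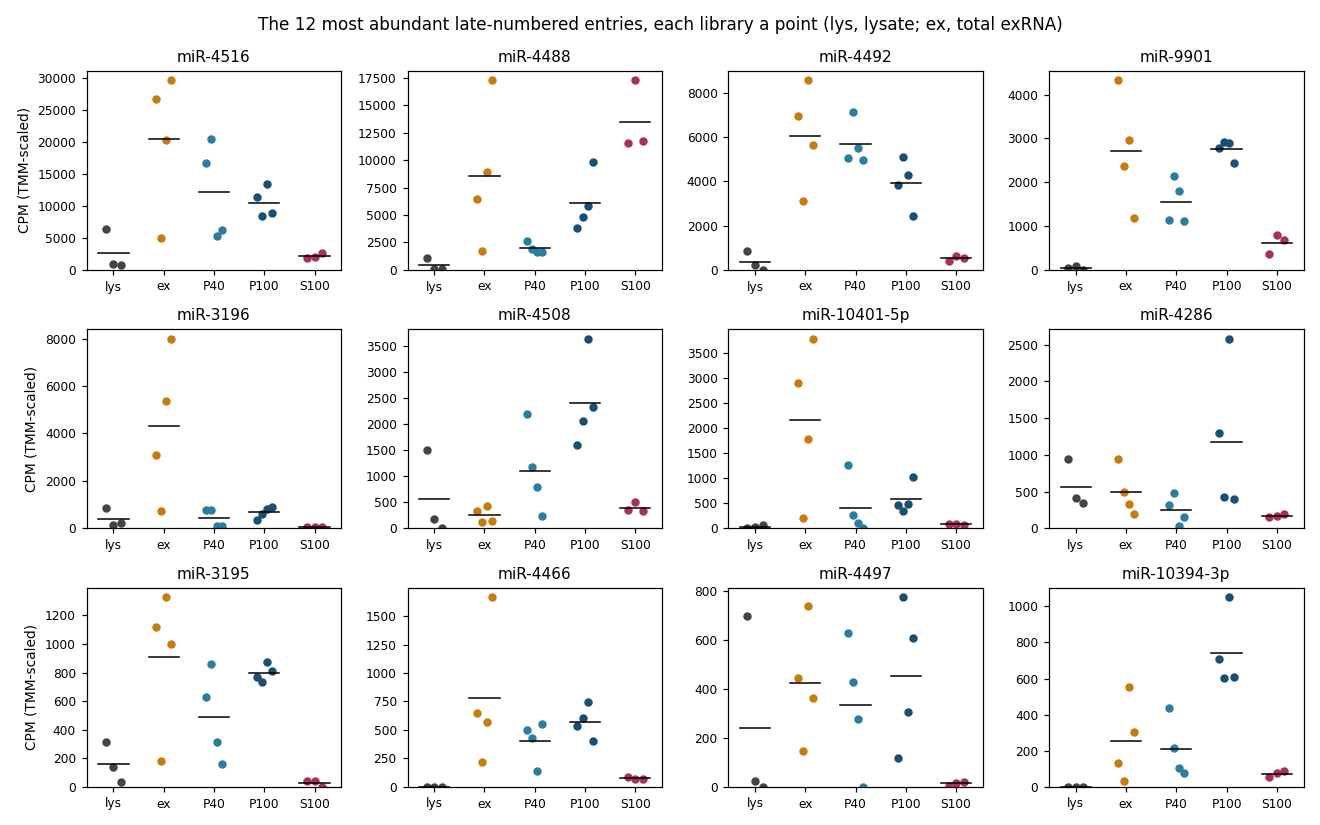
CPM after TMM scaling of the 12 late-numbered entries with the highest mean over groups; each point is a library, lines are group means, and each panel has its own linear axis starting at 0. By group mean, miR-4488 is highest in S100, miR-4508 and miR-10394-3p in P100 and miR-3196 in total exRNA. In miR-4516, miR-4488, miR-4492, miR-3196, miR-4508 and miR-4497, 1 lysate library exceeds the other 2.

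S100 was compared with P100, the pellet spun out of it. Of 16 tested, 13 were lower in S100 and 1 higher, beside 31.3% and 28.6% of all tested miRNAs, and the members' median log2 fold change was -2.80 beside -0.01. miR-4497 (-4.80 ± 1.20, adjusted p = 0.00183), miR-3195 (-4.74 ± 0.86, 8.15e-05), miR-3196 (-3.69 ± 0.87, 0.0012), miR-10394-3p (-3.32 ± 0.72, 0.00054) and miR-4466 (-2.95 ± 0.64, 0.000587) fell the furthest. In all 13 the groups did not overlap, but the like share over all tested miRNAs was not counted, so no excess is read from this. RNA preparation also differed between these groups. miR-10394-3p, miR-10400-5p, miR-10401-5p, miR-3195, miR-3196, miR-3960, miR-4286, miR-4466 and miR-4497, all called lower, reached the filter's level in no S100 library. They entered through other groups, miR-3960 through P100, so the split depends in part on the filter. miR-4690-5p, the 1 called higher, reached that level in no P100 library. With no low-count filter, miR-3615, miR-4707-3p, miR-4707-5p and miR-7108-5p, outside the 16, were called higher in S100. miR-4284, miR-4463 and miR-5701, also outside, were lower. Of the 13, miR-3960 (-1.66 ± 0.63, 0.0278) was lost with batch as a block (adjusted p = 0.0510) and without any of P100 replicates 1 and 2 and S100 replicates 2 and 4 (0.0632 to 0.0896), and with no low-count filter it gave 0.459. miR-10400-5p was lost without P100 replicate 1 (0.0555), with no filter (0.0594) and at equal depth (0.129), miR-4516 with no filter (0.102), and miR-4508 (-2.59 ± 0.89, 0.0166) without S100 replicate 2 or 4 (0.0555 and 0.0588).

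Among the 85 members outside the test, a set was counted almost only in S100. Both arms of miR-4707 showed this most clearly. The hairpin lies in an untranslated region of HAUS4, a subunit of the augmin complex of the spindle, at chr14:22956950-22957029 (-). miR-4707-5p had 32, 34 and 31 counts in the S100 libraries and 0 in the other 15. miR-4707-3p had 51, 71 and 80 counts in S100, 2 in lysate replicate 1 and 1 in total exRNA replicate 3. Pellet libraries are much shallower, so their zeros carry less weight than those of lysate. Depth also favours S100 entries as members, since the 10 summed counts are reached there at a lower CPM. Against lysate the 5p arm was at least 11.7-fold higher in S100, and the 3p arm 36.5-fold (95% counting interval 9.96 to 303); against P100 the bounds were at least 3.76- and 7.83-fold.

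Other entries leaned the same way. They were named after their values were seen, except those in a hairpin with both arms. miR-3940-3p, from an intron of KHSRP, whose protein binds the precursors of some miRNAs, had 32, 66 and 44 counts in S100 and 0 in lysate, at least 17.1-fold higher. It had 4 counts in P100, 3 of them in replicate 4, and P100 overlapped S100 (ratio 4.13, 1.58 to 15.4). miR-3615, in an untranslated region of SLC9A3R1, a scaffold protein of the brush border (chr17:74748663-74748683, +), had 52, 67 and 59 counts in S100 and 2, 7 and 5 in lysate, a ratio of 4.59 (2.66 to 8.56). miR-6789-5p had 14, 15 and 34 counts in S100 and 2 in all of lysate, a ratio of 11.4 (3.02 to 95.9). These intervals cover counting error only. With no low-count filter, miR-4707-5p, miR-4707-3p, miR-3940-3p, miR-3615 and miR-6789-5p were each called higher in S100 than in lysate by edgeR (adjusted p = 0.000103, 1.04e-05, 2.55e-06, 0.00631 and 0.0116). In that fit the median of all tested miRNAs shifted by 0.69 on the log2 scale. Members with counts in S100 alone were miR-4707-5p, miR-3130-3p, miR-3664-3p and miR-6812-5p. These 4 became members through their S100 counts. So did miR-4707-3p, miR-3940-3p and miR-6789-5p, whose counts outside S100 fall short of the threshold for members. The lean of all these entries to S100, and the adjusted p given for some of them, are thus not independent of the choice. The counts of miR-3615 outside S100 reach the threshold.

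A smaller set leaned to lysate, in which miR-5701 was named after its values were seen. miR-5701, annotated at 3 intergenic loci of chromosome 15, had 15, 62 and 16 counts in lysate, 1 in total exRNA, 4 in P40, 5 in P100 and 0 in the deep S100 libraries. It was at least 85.9-fold lower in S100 than in lysate, and its ratio to lysate was 0.0124 in total exRNA (95% counting interval 0.00031 to 0.0707), 0.128 in P40 (0.0341 to 0.338) and 0.167 in P100 (0.0529 to 0.403). All extracellular libraries lay below all lysate libraries. miR-3127-5p, from an intron of the magnesium transporter gene CNNM4, had 5, 10 and 11 counts in lysate, 1 in total exRNA, 0 in the pellets and 5, 15 and 8 in S100. With no low-count filter both were called lower in total exRNA than in lysate by edgeR (adjusted p = 5.82e-05 and 0.0392).

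Hairpins with both arms among the members numbered 13, and the counts of the 2 arms were often unequal within a fraction. miR-3127-5p had 26 lysate counts and its 3p arm 2, beside 28 and 6 in S100. miR-3620-3p had 31 counts in lysate, while the 5p arm had 0 there and 8 in total exRNA; S100 held 5 and 4. miR-6789-3p was seen in lysate 15 times, 14 of them in replicate 2, whereas the 5p arm was seen 2 times, and S100 held 16 and 63. miR-10394-5p had 26 counts in all beside 165 for the 3p arm. The arms of miR-4707 and those of miR-3940 both leaned to S100, with 97 of 97 and 202 of 205 counts there for the first and 40 of 45 and 142 of 149 for the second. These are counts of few reads with no test, and S100 gave the most reads of any group.

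**Figure D4:**
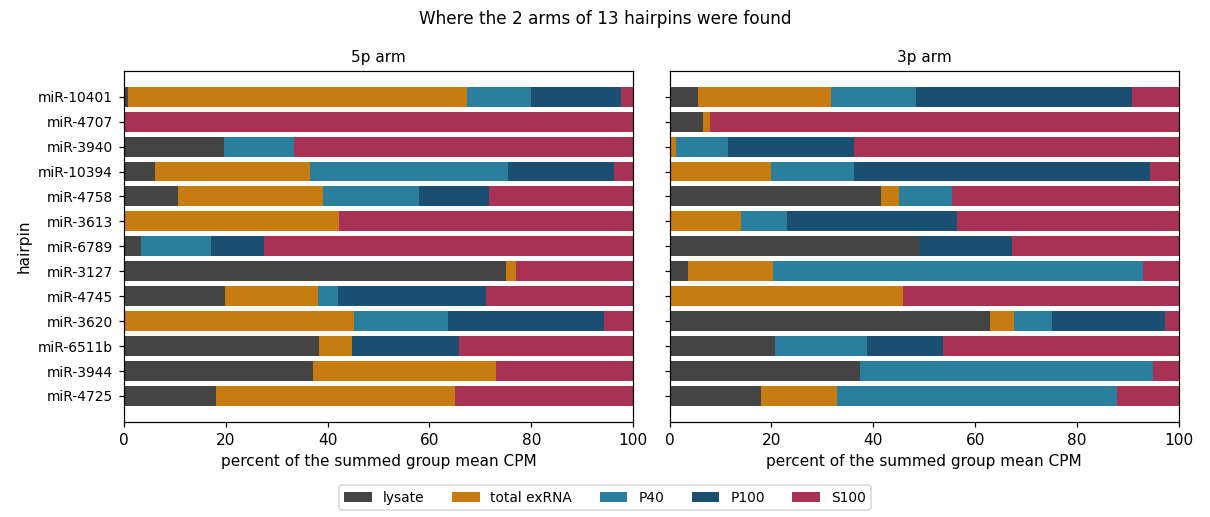
For 13 hairpins with both arms counted, each bar splits the sum of the 5 group mean CPM into its percent in lysate, total exRNA, P40, P100 and S100, 5p arm left and 3p arm right, with no error shown. The miR-4707 bars are almost wholly S100; arms rest on 10 to 479 counts over the 18 libraries, so bars of rare arms such as miR-4725-5p are imprecise.

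Few members were rich in A and U, and miR-3613 was among them. Its arms lie in an intron of DLEU2, the noncoding RNA that also hosts miR-15a and miR-16-1. The 3p arm, with a run of A through its seed in the sequence above, had 22, 52 and 16 counts in S100, 12 in total exRNA replicate 2 and 0 in the other total exRNA libraries and in lysate. P40 held 2 counts and P100 7. It was at least 10.8-fold higher in S100 than in lysate, while S100 and P100 overlapped.

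The members were rich in G and C. A RefSeq sequence was matched for 87 of 101. Their median GC content was 66.7% (22.7% to 94.4%), beside 50.0% in 353 older-numbered miRNAs that also had 10 or more counts. GC content was 75% or more in 21 members (24.1%) and in 14 older-numbered miRNAs (3.97%). Sequences of 18 bases or fewer numbered 9 (10.3%) beside 2 (0.567%). The run GGGG, read on the miRNA strand itself, occurred in 23 members (26.4%), in 35 older-numbered miRNAs (9.92%) and in 278 of 2370 mature sequences of the reference (11.7%).

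**Figure D5:**
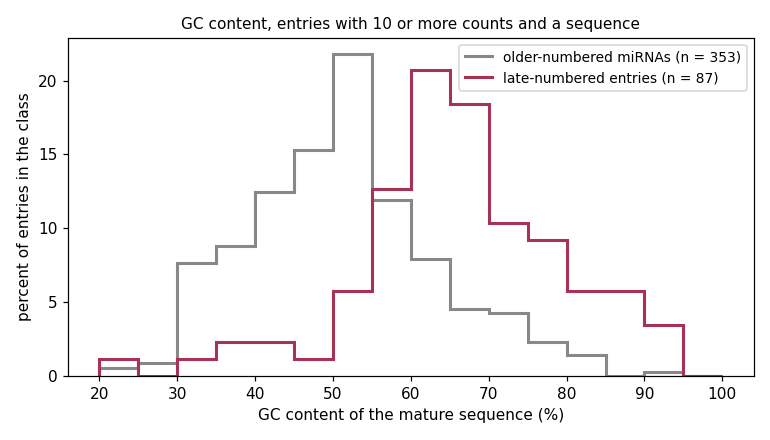
Distribution of mature-sequence GC content (5-point bins, percent of entries in each class) for 87 late-numbered entries and 353 older-numbered miRNAs with 10 or more counts. The late-numbered curve peaks between 60% and 70%, the older-numbered one between 50% and 55%.

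Most of the extracellular share lay in the GC-rich members. The 21 with 75% GC or more held 0.370% ± 0.410 of lysate counts, 4.59% ± 2.23 of total exRNA, 2.46% ± 0.854 of P40, 2.40% ± 0.154 of P100 and 1.75% ± 0.475 of S100. The 23 members below 60% GC held 0.0784% ± 0.0154, 0.0603% ± 0.0216, 0.0584% ± 0.0259, 0.0441% ± 0.0120 and 0.0492% ± 0.00917 in the same order, with no extracellular group mean above lysate. The 43 members between these classes held 0.131% ± 0.0474, 0.139% ± 0.0682, 0.167% ± 0.0482, 0.140% ± 0.0412 and 0.215% ± 0.0336, and in them every S100 library (0.188% to 0.253%) lay above every lysate library (0.0818% to 0.176%). The 14 members without a sequence fall in no class. They held 0.116% ± 0.0899, 0.458% ± 0.204, 0.304% ± 0.169, 0.551% ± 0.113 and 0.100% ± 0.0223 in the same order. The 7 GC-rich entries named by the rule (miR-3195, miR-3196, miR-3960, miR-4466, miR-4492, miR-4508 and miR-4516) were all tested. Of them 6 were higher than in lysate in total exRNA, 4 in P40, 5 in P100 and 2 in S100. The shares of all tested miRNAs were 18.9%, 13.7%, 16.7% and 32.2%. In S100 2 of the 7 were lower than in lysate (median log2 fold change -0.28), beside 30.0% of all tested miRNAs. All 7 were lower in S100 than in P100, beside 31.3%. The rule's names, not GC content, set these 7 apart. miR-3195, miR-3960 and miR-4508 had no sequence, and those of the other 9 tested members with a sequence held 68.2% to 88.9% GC. Of these 9, 6, 6, 6 and 4 were higher than in lysate in total exRNA, P40, P100 and S100. Among these 9, 2 were lower in S100 than in lysate and 6 lower in S100 than in P100, beside the same shares. Since the members were chosen with earlier results known, these counts add no independent support. Among 30 tested older-numbered miRNAs with a GC content of 60% or more, 2 were higher and 11 lower in total exRNA than in lysate, with a median log2 fold change of -1.06, and the medians were -0.45 in P40, -0.86 in P100 and 0.31 in S100. A check of GC content against fold change within the tested members is void, as 9 of 16 had a sequence.

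By position on GRCh38 (GENCODE v29, same strand), 49 of the 87 members lay in introns, 17 between genes, 9 in other exons, 7 in untranslated regions and 5 in coding sequence. Mirtron-like positions were frequent: 22 members (25.3%) began at the start or stopped at the end of an annotated intron within 2 bases, beside 8 of 353 older-numbered miRNAs (2.27%). They included miR-4690-5p, miR-3940-5p, both arms of miR-6789, miR-7108-5p, miR-6511a-3p and miR-6511b-3p. These 22 held 0.0576% ± 0.0375 of lysate counts and 0.110% ± 0.0201 of S100 counts, with ranges of 0.0212% to 0.0961% and 0.0920% to 0.132% that overlapped. miR-4284 matched the mitochondrial tRNA gene MT-TF and had 12 counts in all.

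Few members belong to seed families seen here. miR-6511a-3p and miR-6511b-3p share the seed CUCACCA and differ by 1 mismatch, so reads may have moved between them. miR-6511b-5p had 0 mismatches to miR-6511a-5p over the bases compared, which does not show that their ends or seeds are the same. Of the late-numbered hairpins known to lie antisense to or over an older one (miR-3065, miR-3074, miR-3120, miR-3184, miR-3529 and miR-3591), only miR-3065-5p was a member, with 12 counts, 9 of them in S100. It lies antisense to the hairpin of miR-338, and whether counting used strand is not given in the sources used here. Of the entries overlapping snoRNAs, miR-3607, miR-3647 and miR-3653 were not listed.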

How the data were processed

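Small RNA was sequenced with the RealSeq-AC version 2 kit as single reads of 50 bases, per the labels' protocols. Each deposited file gives 1 library's unnormalized counts by mature miRNA, made by the authors with cutadapt 1.16, FastQC and Bowtie2 on GRCh38, per the submitters' processing notes. The handling of multi-mapping reads, strand, filters and the miRNA release is not given in the sources used here. Names absent from a file were set to 0. Libraries with fewer than 100 miRNAs were left out (1 library).

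The members and lists were chosen with earlier results of these data known. Genes named follow a rule. It covers the 12 most abundant members, the 5 largest called rises and falls of a comparison, and listed GC-rich, antisense and snoRNA-overlapping entries. It also covers hairpins with both arms and entries at the threshold. Others are named for a position, sequence match or likeness, or are said to be chosen after their values were seen.

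In R 4.3.3, edgeR 4.0.16 kept miRNAs by filterByExpr (minimum count 10, minimum total 15), scaled libraries by TMM and fitted 1 robust quasi-likelihood model to the 5 groups, each comparison adjusted over 227 miRNAs, which held 98.5% to 99.1% of each library. The fitting script was tested on simulated data. Values are shares of a library, not amounts, and are not scaled by length. At a floor of 3 counts, libraries resolve 13.3 to 299 CPM before TMM scaling. Ratios of summed counts have exact 95% intervals, which, with floors, cover counting error only, as no molecular identifiers are stated. All 24 replicate pairs differed by more than sampling noise (chi-square per degree of freedom 4.32 to 49.8). The labels give each replicate number as a batch, so the numbers pair samples; the deviations of same-numbered libraries had a mean correlation of -0.03 over 32 pairs (-0.568 to 0.311). Alternatives were another filter or none, library size alone, DESeq2 1.42.0, equal depth, 2 groups alone, the batch block and leaving out each library; leaving out lysate replicate 1 and total exRNA replicate 2 together was added after seeing the data.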

Additional observations from a re-analysis of the deposited data

How the results depend on the processing

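Of 58 called fold changes, 31 stayed called in the same direction under every one of the settings listed here and with each library left out. DESeq2 and scaling by library size alone each kept 57, equal depth 39, and the replicate block 52; the block ended the calls of miR-10401-5p (P40 against lysate), miR-3195, miR-4286 and miR-4497 (S100 against lysate) and miR-3960 (P100 against P40, S100 against P100), and no other, and it added miR-4508 (P100 against lysate). Scaling by library size moved the median of all miRNAs by 0.30, 0.35, 0.12 and 0.18 (log2) for total exRNA, P40, P100 and S100 against lysate.

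Counts of called members moved as follows. The shares of all miRNAs called in these other fits are not given, so the counts show how calls moved and no excess of members. With no low-count filter (101 members tested), 2 were lower in total exRNA and 1 in P40, and in S100 17 were higher and 7 lower than in lysate, with 6 higher in S100 than in P100. With at least 10 counts in 3 libraries (34 tested), 3 were lower in each of total exRNA, P40 and P100, 13 higher in S100 than in lysate, 7 higher in S100 than in P100, and 0 higher in P100 than in P40. At equal depth S100 against lysate gave 3 higher and 0 lower, and S100 against P100 gave 0 higher. With the replicate block, 1 was lower in S100 than in lysate and 0 higher in P100 than in P40. In fits of 2 groups, 2 were lower in S100 than in lysate, 3 higher in P100 than in P40 and 2 higher in S100 than in P100; DESeq2 gave 2 for P100 against P40. Without lysate replicate 1 and total exRNA replicate 2 together, 2 were lower in S100 than in lysate, 4 higher in P100 than in P40 and 2 higher in S100 than in P100. Leaving out each library gave 10 to 13 higher members in total exRNA, 6 to 12 in P40, 9 to 13 in P100 and 6 to 9 in S100 against lysate, 0 to 4 lower in S100, 0 to 1 higher in P100 than in P40, and 11 to 13 lower in S100 than in P100. The lowest P40 number came without lysate replicate 2; the 0 lower in S100 came without lysate replicate 1, and 2 without S100 replicate 2 or 4.

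Signs changed in S100 against lysate: without lysate replicate 1, miR-4497 gave 0.000418, miR-4508 1.96 and miR-4516 1.37 (ranges over left-out libraries -4.28 to 0.000418, -0.99 to 1.96 and -0.74 to 1.37), and with total exRNA replicate 2 out as well miR-4508 gave 1.94 and miR-4516 1.37. The cause was not tested. With the 13 left-out entries added, shares were 5.90% in lysate, 17.9% in total exRNA, 13.0% in P40, 22.7% in P100 and 2.54% in S100, so S100 then lay below lysate. Members with at least 3 counts numbered 28 in lysate, 27.8 in total exRNA, 16.5 in P40, 18.5 in P100 and 64.7 in S100, and at equal depth 20.9, 28.8 and 29.7 were expected in lysate, total exRNA and S100. Depth limits the pellets most: 3 counts there equal 111 to 299 CPM before TMM scaling, so a count of 0 does not show that a member is absent from a pellet. The 85 members outside the test failed the low-count filter (278 CPM).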
